A study of Mus musculus with 6 samples.

Results

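The polymeric immunoglobulin receptor and the Fc receptors were followed in whole prostates of mice with floxed p62 and an FSP1-Cre. The set holds 7 genes of the 24421 in the count table, chosen by symbol: Pigr, Fcgr1, Fcgr2b, Fcgr3, Fcgr4, Fcer1g and Fcgrt. All 7 passed the filter on low counts, as did 13762 genes in all. The knockout group held 3 libraries from mice with floxed p62 alleles (p62f/f) and, in addition, FSP1-Cre, which the labels describe as a stromal deletion (p62FSP1KO). The control group held 3 libraries from p62f/f mice without a labelled Cre, which the labels call wild type. Both groups were C57BL/6 mice aged 52 weeks, so all 6 libraries came from carriers of the floxed alleles. p62 is the autophagy adaptor encoded by Sqstm1. FSP1 is encoded by S100a4, which is expressed in fibroblasts and also in some leukocytes, so Cre activity in Fc receptor-bearing cells was not tested. Whether the libraries stem from different animals is not stated, so the p-values measure only the spread among the samples, which may be technical.

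These receptors handle antibodies in different ways. Pigr is made by secretory epithelium, binds polymeric IgA and IgM that carry the joining chain, and carries them across the cell to the lumen, where its outer part is released as secretory component. The Fc gamma receptors sit on leukocytes and bind IgG: Fcgr1 (high affinity), Fcgr3 and Fcgr4 activate the cell through the shared gamma chain encoded by Fcer1g, while Fcgr2b is the inhibitory receptor. Fcgrt encodes the heavy chain of the neonatal Fc receptor, FcRn, which pairs with beta-2 microglobulin (B2m) and protects IgG from breakdown in endosomes of endothelium, macrophages and epithelium.

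On GRCm38, the assembly of mm10, Pigr lies on chromosome 1, from 130826684 to 130852249 on the plus strand. Fcgr2b (170958617 to 170976547, minus strand), Fcgr4 (171018920 to 171029761, plus strand), Fcgr3 (171051174 to 171064935, minus strand) and Fcer1g (171229572 to 171234365, minus strand) lie in a cluster on the same chromosome. Fcgr1 lies on chromosome 3 (96282909 to 96293969, minus strand) and Fcgrt on chromosome 7 (45092990 to 45103851, minus strand). The 250 bases before the RefSeq start of Pigr, Fcgr4 and Fcgr1 are shown because Pigr and Fcgr4 had the lowest and the highest fold change of the set, and Fcgr1 is a classical interferon-gamma target. Sequences are from RefSeq, GRCm38.p6, written 5′ to 3′ on the strand of the gene. Capitals mark the E-box CACGTG in Pigr (chr1:130826434-130826683, plus strand), the ETS core AGGAAG in Fcgr4, whose reverse complement stands here (chr1:171018676-171018925, plus strand), and the GAS motif TTCNNNGAA in Fcgr1 (chr3:96293970-96294219, minus strand).
Pigr: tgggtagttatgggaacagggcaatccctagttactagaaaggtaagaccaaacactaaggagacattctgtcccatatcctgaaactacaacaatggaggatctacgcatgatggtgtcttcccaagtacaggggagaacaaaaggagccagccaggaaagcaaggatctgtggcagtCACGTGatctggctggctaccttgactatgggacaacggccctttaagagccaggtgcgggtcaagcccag
Fcgr4: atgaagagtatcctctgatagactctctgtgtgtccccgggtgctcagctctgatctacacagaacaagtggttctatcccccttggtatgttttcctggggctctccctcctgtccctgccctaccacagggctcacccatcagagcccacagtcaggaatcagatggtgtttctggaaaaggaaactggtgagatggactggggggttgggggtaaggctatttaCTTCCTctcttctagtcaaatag
Fcgr1: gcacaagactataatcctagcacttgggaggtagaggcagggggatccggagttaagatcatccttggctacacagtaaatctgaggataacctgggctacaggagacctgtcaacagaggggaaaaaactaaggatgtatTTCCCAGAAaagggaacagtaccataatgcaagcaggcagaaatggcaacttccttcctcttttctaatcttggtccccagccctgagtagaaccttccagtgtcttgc

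Motifs were searched on both strands in the 250 bases before the start of all 7 genes, which have 8 listed starts (2 for Fcgr3), and of 32851 promoters in all. The E-box CACGTG, the kind of site bound by USF factors, was found in Pigr at -71 to -66 and in no other member, against 6.02% of all promoters. The ETS core AGGAAG, part of the sites of the myeloid factor PU.1, was found in Fcgr1, Fcgr3, Fcgr4 and Fcer1g and not in Pigr, Fcgr2b or Fcgrt, against 29.5% of all promoters. In Fcgr1 it occurred at 2 positions that overlap each other. The GAS motif TTCNNNGAA was found only in Fcgr1, at -109 to -101, against 7.02% of all promoters. The IRF motif, GAAA followed by any pair of bases and GAAA again, was found only in Fcgr4, at -73 to -64, against 2.98%, and overlapped none of the other matches. A match describes letters and is no evidence of binding.

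Total counts per library were 14761703 to 26910053 in knockouts and 12826463 to 20011908 in controls. Sqstm1, the targeted gene, stood at 541, 387 and 462 CPM (read counts scaled to a common library size with TMM factors) in knockout 1, 2 and 3, against 360, 409 and 295 CPM in control 1, 2 and 3. Reads of the whole organ and the whole gene do not check a stromal deletion. Control 3 stood apart from its group, with Spearman correlations across genes of 0.942 and 0.938 with control 1 and 2, which correlated at 0.985. Control 1 and 2 correlated at 0.947 and 0.943 with knockout 2 and at 0.946 and 0.948 with knockout 3. Both controls were thus closer to these knockouts than to control 3. The prostate secretory gene Tgm4 was at 21.8 CPM in control 3, against 32009 and 34344 CPM in control 1 and 2. The correlation of knockout 1 was 0.958 with knockout 2 and 0.953 with knockout 3, and that between knockout 2 and 3 was 0.986. The prostate marker Hoxb13 was detected in all 6 libraries.

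Pigr, the epithelial transporter, was about 30.3-fold lower in knockout prostates, while 4 of the 5 leukocyte receptor genes were higher in every knockout library than in every control library. Fcgr4 stood out among these with an 8.30-fold higher mean, against 1.72-fold to 2.03-fold for Fcgr1, Fcgr2b and Fcgr3. Fcer1g and Fcgrt overlapped between the groups. The groups did not overlap for 5 of the 7 members (4 higher, 1 lower), and over all 13762 genes tested 32.4% did not overlap (14.1% higher, 18.3% lower). The 7 genes were chosen with results of this contrast known, so their fold changes are a description with no test. In the edgeR quasi-likelihood fit across all genes, 5.07% passed the adjusted threshold of 0.05, with 0.414% higher and 4.66% lower.

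**Figure D1:**
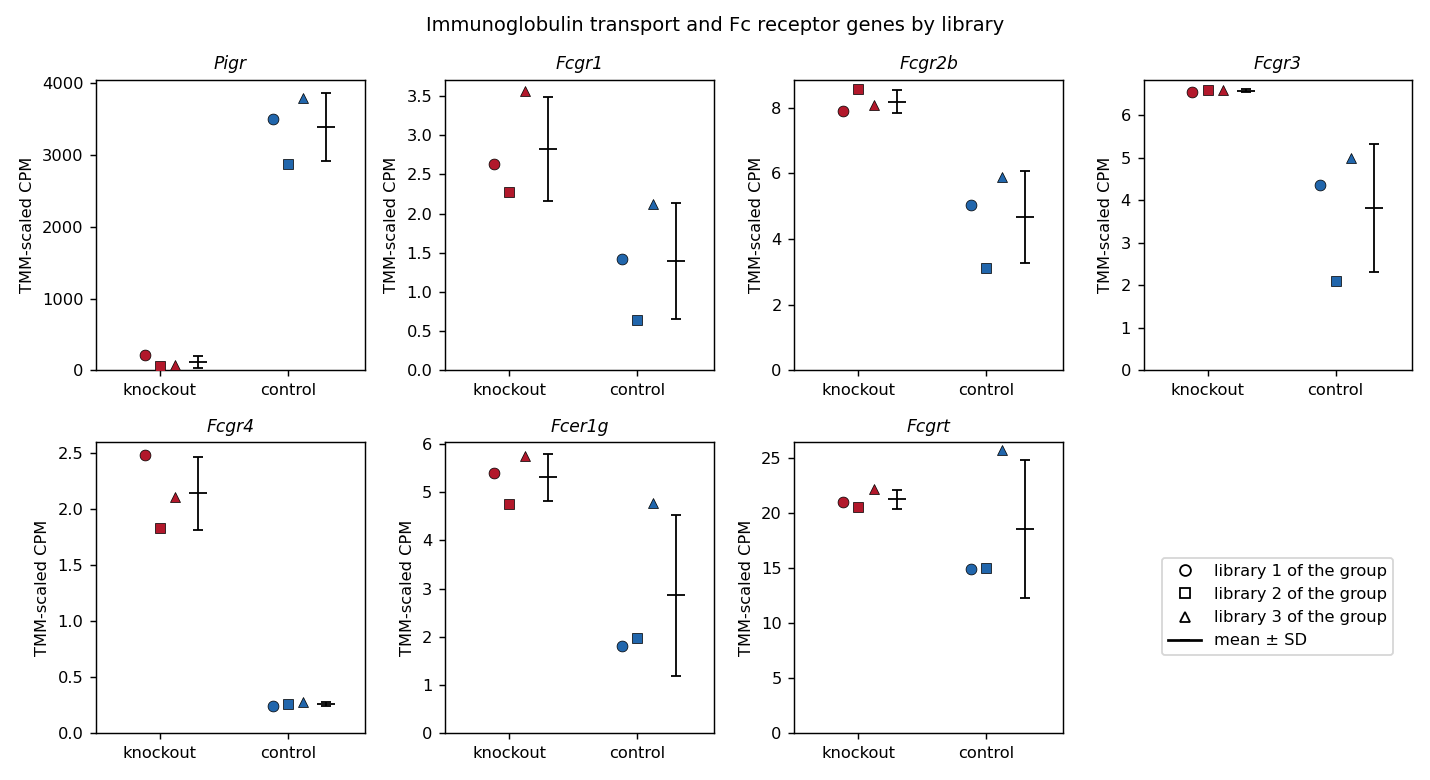
TMM-scaled CPM (vertical axes, linear from 0) of the 7 receptor genes in each library, knockout at left and control at right, with a marker shape for the library number and the mean ± SD of 3 libraries. The 3 Pigr points of the knockouts lie between 53.7 and 207 CPM, below all controls, while the Fcgr4 points of the knockouts lie between 1.82 and 2.48 CPM, above all controls.

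Pigr was at 207, 53.7 and 74.7 CPM in knockout 1, 2 and 3, against 3498, 2873 and 3797 CPM in control 1, 2 and 3. The controls were close to each other, control 3 included, while knockout 1 was the highest of its group. The means were 111.7 ± 83.04 CPM in knockouts and 3389 ± 472 CPM in controls (SD, n = 3 each), and the log2 fold change was -4.92 ± 0.60 (SE). Without knockout 1 it was -5.72. Of the 13762 tested genes, 112 had a lower log2 fold change. These values rest on 1295 to 2753 counts per knockout library and 44999 to 71683 counts per control library, so counting error was small beside the spread between libraries.

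Luminal epithelial markers, as a list, stood near the level of all genes. Of 15 tested, 0 passed in edgeR (3 with an unadjusted p under 0.05), 0 in limma-voom and 3 in DESeq2 (Cdh1, Spint1 and Elf3, all lower). Their median log2 fold change was 0.10, against 0.03 over all tested genes, and their summed level was 7291 to 8320 CPM in knockouts, against 4973 to 7148 CPM in controls. The 2 with the smallest p were the transcription factor gene Elf3 (log2 fold change -0.88 ± 0.24 SE, adjusted p = 0.0898) and the protease inhibitor gene Spint1 (-0.57 ± 0.17, adjusted p = 0.118). On a scale of log2(CPM + 0.5), Pigr minus the mean of the luminal markers was -0.83, -2.48 and -2.01 in knockout 1, 2 and 3, against 3.39, 3.12 and 4.14 in control 1, 2 and 3. The difference between the group means was -5.32, in log2 units. In whole tissue, fewer cells of a type and less RNA per cell cannot be told apart.

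Prostate secretory genes were mixed. Of the 6 on the secretory list, 4 fell (Sbp, Sbpl, Spink1 and Msmb; adjusted p of 0.00832 to 0.0461, edgeR), and Tgm4 and Pbsn did not pass. Both had higher values in every knockout than in every control, with log2 fold changes of 1.10 ± 1.62 (SE) for Tgm4 and 2.08 ± 0.99 (SE) for Pbsn, and Pbsn passed as higher in DESeq2, which called the same 4 lower. In limma-voom 3 passed, all lower (Sbp, Sbpl and Spink1). Sbp, the spermine binding protein gene, was at 40.4, 9.12 and 1.38 CPM in knockout 1, 2 and 3, against 30978, 10640 and 89475 CPM in control 1, 2 and 3. Knockout 1 was the highest knockout library for Sbp, Sbpl, Spink1 and Pigr. Sbp and Sbpl are related copies, so their division of reads is uncertain. The Sbp, Sbpl and Spink1 calls missed the threshold without knockout 2 (adjusted p of 0.0543 to 0.0815), and the Msmb call in 8 of 14 alternatives. Msmb was at 1.20, 0.50 and 0.08 CPM in knockout 1, 2 and 3, against 1.27, 311 and 346 CPM in control 1, 2 and 3. Control 1 thus stood near knockout 1 for this gene. The part of these secretory genes' differences in the Pigr difference was not tested. The labels name whole prostates and do not give the share of each prostate lobe in a library. The part of lobe content in the differences of the secretory genes and of Pigr was thus not tested either.

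Fcamr, which encodes an Fc receptor for IgA and IgM and lies 11.9 kb upstream of Pigr (chromosome 1, 130800902 to 130814740, plus strand), fell too. It was at 0.60, 0.62 and 0.61 CPM in knockout 1, 2 and 3 (8, 15 and 16 counts), against 5.81, 4.79 and 12.3 CPM in control 1, 2 and 3 (119, 75 and 180 counts). This gave a log2 fold change of -3.62 ± 0.46 (SE; adjusted p = 0.00559, edgeR). The call was kept in all 14 alternatives run, with an adjusted p of at most 0.0390. On the other side of Pigr lies Fcmr, the IgM receptor gene, at 13.4 kb (chromosome 1, 130865669 to 130880791). It did not pass the count filter and stood at 0.75, 0.41 and 0.19 CPM in knockouts, against 0.00, 1.02 and 0.41 CPM in controls. Of the 11 other protein-coding genes within 200 kb of Pigr, 4 were tested and Fcamr alone passed. The neighbours were chosen after the data were seen.

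On the list of other Fc and Fc-like receptors 4 genes were tested, of which Fcamr fell and 3 did not pass. These 3 were named after their values were seen. Fcgbp, which encodes a mucin-like IgG-binding protein of mucus, was at 452, 171 and 222 CPM in knockout 1, 2 and 3, against 70.6, 144 and 5.06 CPM in control 1, 2 and 3 (log2 fold change 1.94 ± 0.95 SE, adjusted p = 0.274, edgeR). All knockouts lay above all controls, and control 3 was far below the other controls. Fcrls had a log2 fold change of 0.19 ± 0.61. Trim21, which encodes a cytosolic antibody receptor, had a log2 fold change of -0.14 ± 0.19. Another 9 of the list, among them the IgE receptor genes Fcer1a and Fcer2a, did not pass the count filter and had at most 19 counts in any library. Fcer1a was at 0.45, 0.54 and 0.65 CPM in knockout 1, 2 and 3 (6, 13 and 17 counts), against 0.05, 0.26 and 0.07 CPM in control 1, 2 and 3 (1, 4 and 1 counts). Its groups did not overlap, on few counts. Fcer2a overlapped, at 0.00, 0.08 and 0.04 CPM in knockouts, against 0.00, 0.38 and 0.21 CPM in controls.

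Of the genes that route Pigr through the epithelial cell, 2 of 13 tested fell and none rose (edgeR, adjusted over all genes; 5 with an unadjusted p under 0.05), and the median log2 fold change was -0.11. DESeq2 called 4, all lower (Rab17, Rab11fip1, Myo5b and Exoc4), and limma-voom 2. Rab17, a GTPase of transcytosis in polarised epithelium, was at 3.68, 0.79 and 1.34 CPM in knockout 1, 2 and 3, against 9.37, 10.9 and 16.8 CPM in control 1, 2 and 3 (log2 fold change -2.72 ± 0.57 SE, adjusted p = 0.0379). Rab11fip1, an effector of Rab11 in recycling endosomes, was at 52.4, 87.6 and 94.1 CPM in knockouts, against 247, 209 and 469 CPM in controls (-1.98 ± 0.37, adjusted p = 0.0242). Both genes were lower in every knockout library than in every control library. The Rab17 call missed the threshold without any single control, knockout 2 or knockout 3 (adjusted p of 0.0704 to 0.125), and the Rab11fip1 call when any knockout was left out (0.0727 to 0.0956). Without control 3 and knockout 1 together, 3 of 14 passed, all lower (Rab17, Rab11fip1 and Exoc4).

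The joining chain gene, Jchain, whose product polymeric IgA and IgM need in order to bind Pigr, had overlapping groups. It was at 82.8, 77.8 and 107.9 CPM in knockout 1, 2 and 3, against 14.9, 26.2 and 135.2 CPM in control 1, 2 and 3. This was a log2 fold change of 0.61 ± 0.72 (SE; adjusted p = 0.639, edgeR). Control 3 decided this value: without it the log2 fold change was 2.13, with an adjusted p of 0.0104. Of 8 tested immunoglobulin and plasma cell genes 0 passed in edgeR (1 with an unadjusted p under 0.05), 0 in limma-voom and 1 in DESeq2 (Fkbp11, higher), with a median log2 fold change of 0.49. The smallest p were those of the secretory pathway genes Fkbp11 (1.75 ± 0.48, adjusted p = 0.0892) and Derl3 (0.94 ± 0.46, adjusted p = 0.275), which secretory epithelium also expresses. Of the 20 genes listed by symbol 9 were in the count table, and no immunoglobulin constant region gene was among them. Of 6 tested B cell markers 0 passed in edgeR, DESeq2 or limma-voom, and 0 had an unadjusted p under 0.05. Their summed level was 4.37 to 18.4 CPM in knockouts, against 1.37 to 10.05 CPM in controls. The pan-B genes Ms4a1 and Cd79a had log2 fold changes of 0.95 ± 0.67 and 0.75 ± 0.80. Without control 3 and knockout 1 together, 3 of 8 immunoglobulin and plasma cell genes passed, all higher (Jchain, Pou2af1 and Fkbp11), and 0 of 6 B cell markers.

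Among the leukocyte receptors, Fcgr4 differed most. It was at 2.48, 1.82 and 2.11 CPM in knockout 1, 2 and 3 (33, 44 and 55 counts), against 0.24, 0.26 and 0.27 CPM in control 1, 2 and 3 (5, 4 and 4 counts). The 3 controls were alike and the groups lay far apart, but each control value rests on 5 counts or fewer. The log2 fold change was 3.02 ± 0.41 (SE). Pooled over libraries, 132 counts in knockouts against 13 in controls gave a ratio of 8.12. Its 95% interval of 4.59 to 15.6 (exact, from the binomial distribution) covers counting error only and leaves out the spread between libraries. Fcgr4 was singled out after its values were seen, so the interval is no test of a group difference. Of the 13762 tested genes, 30 had a higher log2 fold change.

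Fcgr1, the high-affinity IgG receptor, was at 2.63, 2.28 and 3.56 CPM in knockout 1, 2 and 3, against 1.42, 0.64 and 2.12 CPM in control 1, 2 and 3. The lowest knockout lay just above the highest control, control 3, and the log2 fold change was 1.02 ± 0.48 (SE). Fcgr3, the low-affinity activating receptor, was at 6.54, 6.59 and 6.59 CPM in knockouts, against 4.34, 2.11 and 4.99 CPM in controls. Its knockouts were nearly equal while its controls spread widely, with control 2 lowest, and the log2 fold change was 0.78 ± 0.36. Fcgr2b, the inhibitory receptor, was at 7.89, 8.58 and 8.08 CPM in knockouts, against 5.03, 3.13 and 5.88 CPM in controls, with a log2 fold change of 0.81 ± 0.30. Control 2 was the lowest library for Fcgr1, Fcgr2b and Fcgr3.

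Per length of exon, the balance of the inhibitory receptor to Fcgr3 was alike in the groups, and that of Fcgr4 to the inhibitory receptor was not. The level of Fcgr2b per kilobase divided by that of Fcgr3 was 0.36, 0.39 and 0.37 in knockout 1, 2 and 3, against 0.35, 0.45 and 0.35 in control 1, 2 and 3. The level of Fcgr4 per kilobase divided by that of Fcgr2b was 1.45, 0.98 and 1.20 in knockouts, against 0.22, 0.38 and 0.21 in controls. Length was the union of all annotated exons of a gene, 5.79 kb for Fcgr2b, 1.74 kb for Fcgr3 and 1.26 kb for Fcgr4. Which transcripts were present was not tested, so these ratios compare the groups and do not rank the receptors by level. Fcgr4 made up 7.59% to 9.94% of the summed CPM of the 5 leukocyte genes in knockouts, against 1.52% to 3.15% in controls. Fcgr2b and Fcgr3 are close relatives: of the 1733 windows of 75 bases (the read length) in Fcgr3 transcripts 94 (5.42%) also occur in Fcgr2b transcripts, so the division of those reads is uncertain. Of the 5768 windows in Fcgr2b transcripts 313 (5.43%) occur in other genes, with the most, 123, in Cplx2. In Pigr 18 of 3928 windows (0.458%) did so. No window of Fcgr1, Fcgr4, Fcer1g or Fcgrt occurred in transcripts of another gene.

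Fcer1g, the signalling gamma chain, was at 5.41, 4.77 and 5.75 CPM in knockout 1, 2 and 3, against 1.81, 1.98 and 4.78 CPM in control 1, 2 and 3. Control 3 reached the lowest knockout, so the groups overlapped, and the log2 fold change was 0.90 ± 0.43 (SE). Without control 3 it was 1.49. The genes whose profile over the 6 libraries was most like that of Fcer1g, by the mean absolute difference of centred log2(CPM + 0.5), were Laptm5, C1qa and Tnfaip8, at 0.10, 0.12 and 0.12 log2 units among 9100 genes searched. Laptm5 is a lysosomal protein of blood cells and C1qa a complement chain made by macrophages.

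The genes that carry the signal of the leukocyte receptors did not pass as single genes. Of 16 ITAM adaptor and Fc receptor signalling genes 0 passed in edgeR (2 with an unadjusted p under 0.05), 0 in limma-voom and 1 in DESeq2 (Btk, higher), and the median log2 fold change was 0.18. Btk, a kinase of B cells and myeloid cells, was at 3.83, 3.19 and 4.33 CPM in knockout 1, 2 and 3, against 1.27, 0.96 and 2.05 CPM in control 1, 2 and 3 (log2 fold change 1.41 ± 0.39 SE, adjusted p = 0.0893, edgeR). Lyn, a kinase that acts on ITAM and ITIM tails, had a log2 fold change of -0.76 ± 0.24 (adjusted p = 0.130, edgeR). The direction was not stable for the next 3 genes, which changed sign in some alternatives. Tyrobp, an ITAM adaptor like Fcer1g, stood at 5.27 ± 0.26 CPM in knockouts and 4.77 ± 2.49 CPM in controls (SD, n = 3 each), with a log2 fold change of 0.15 ± 0.39. Syk, the kinase recruited by ITAMs, had a log2 fold change of -0.01 ± 0.40, and Inpp5d, the phosphatase recruited by Fcgr2b, of 0.29 ± 0.38.

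**Figure D2:**
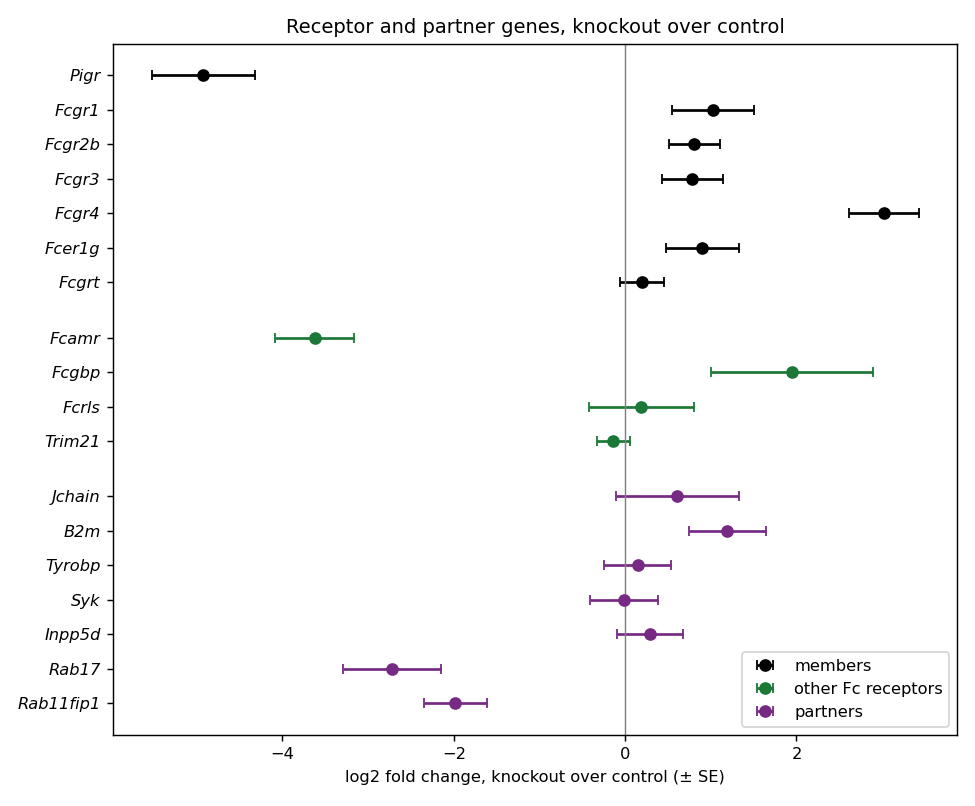
Log2 fold change, knockout over control (horizontal axis), with its SE, of the 7 members, 4 other tested Fc receptor genes and 7 partner genes. Pigr at -4.92 and Fcamr at -3.62 lie far left, Fcgr4 at 3.02 far right, and Syk at -0.01 near 0.

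Leukocyte markers lay higher in knockouts mainly against control 1 and 2, without passing the test as single genes. The summed level of 5 pan-leukocyte markers was 58.4 to 65.5 CPM in knockouts, against 27.2, 32.8 and 56.4 CPM in control 1, 2 and 3. All 5 had positive log2 fold changes with a median of 0.71, and 0 passed in edgeR, DESeq2 or limma-voom, with 1 at an unadjusted p under 0.05 in edgeR. Ptprc, the CD45 gene, was at 11.9, 15.9 and 19.2 CPM in knockout 1, 2 and 3, against 7.32, 10.5 and 14.6 CPM in control 1, 2 and 3 (log2 fold change 0.54 ± 0.31 SE, adjusted p = 0.341, edgeR). Without control 3 and knockout 1 together its adjusted p was 0.0481, and 3 of 5 markers passed, all higher (Ptprc, Laptm5 and Cd53). Laptm5 had a log2 fold change of 0.76 ± 0.31 (adjusted p = 0.208, edgeR), and Coro1a, an actin regulator of leukocytes, of 0.73 ± 0.35 (adjusted p = 0.262).

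The summed level of 18 macrophage and monocyte markers was 226 to 298 CPM in knockouts, against 172, 137 and 313 CPM in control 1, 2 and 3, so the groups overlapped through control 3. Of these markers 0 passed in edgeR (4 with an unadjusted p under 0.05), 0 in limma-voom and 2 in DESeq2 (Aif1 and Ly86, higher), and the median log2 fold change was 0.32. Ly86 and Aif1 had log2 fold changes of 1.24 ± 0.40 and 1.25 ± 0.41 (adjusted p = 0.132 and 0.136, edgeR). Without control 3 and knockout 1 together, 5 of 18 passed, all higher (Adgre1, Itgam, C1qa, C1qb and Ctss).

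Set against these markers, the leukocyte Fc receptors differed less than on their own, and Fcgr4 more than the mean. On the log2(CPM + 0.5) scale the mean of the 5 receptors minus that of the macrophage markers was -0.91, -1.33 and -1.23 in knockout 1, 2 and 3, against -1.63, -1.73 and -1.99 in control 1, 2 and 3. The groups did not overlap, and the difference was 0.63, or 0.40 without control 3 and knockout 1. Against the pan-leukocyte markers the values were -1.22, -1.33 and -1.25 in knockouts and -1.21, -1.78 and -1.79 in controls, and control 1 overlapped the knockouts. Fcgr4 alone minus the macrophage markers was -1.67, -2.33 and -2.24 in knockouts, against -3.35, -3.00 and -4.08 in controls. The part of leukocyte number in the receptor levels was not tested.

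**Figure D3:**
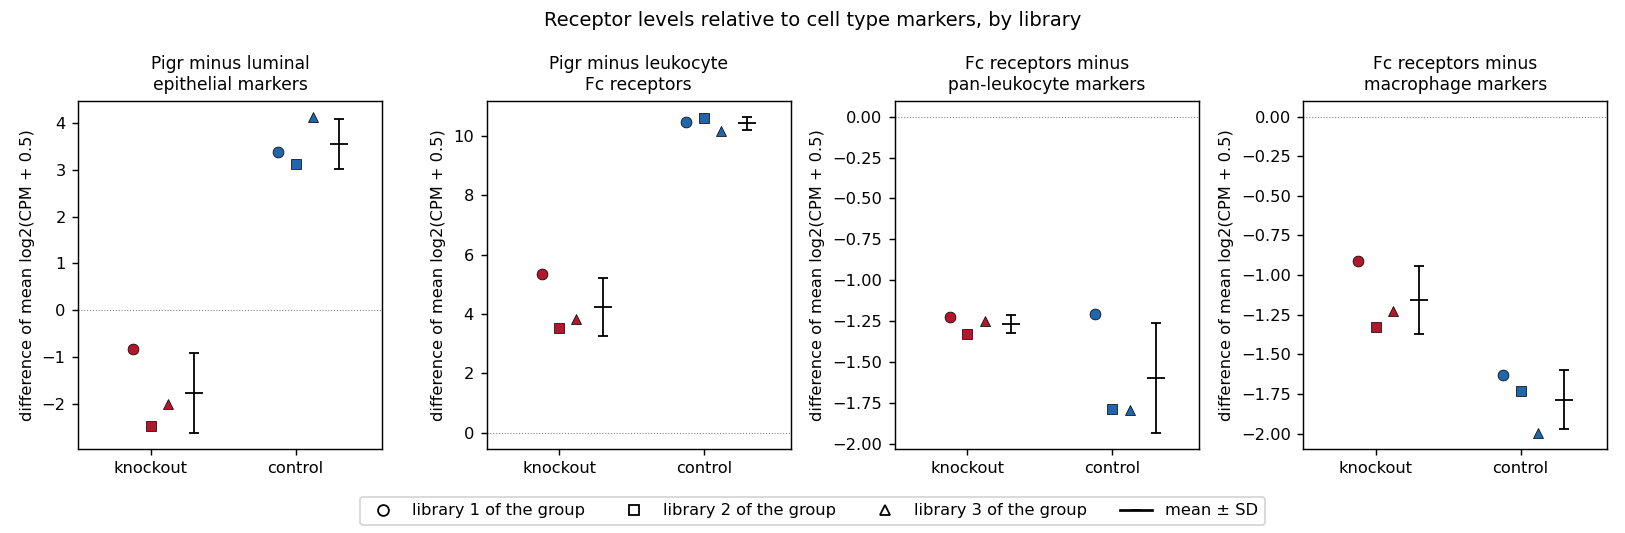
Differences on the log2(CPM + 0.5) scale (vertical axes, each with its own range) of Pigr and of the mean of 5 leukocyte Fc receptor genes against cell type markers, by library, knockout at left, with mean ± SD of 3 libraries. Pigr minus luminal markers is below 0 in all knockouts and above 3 in all controls, while the Fc receptors minus pan-leukocyte markers overlap.

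Other cells that can carry Fc receptors were followed by their markers, of which those of neutrophils were sparse. Of 8 neutrophil markers 1 passed the count filter (Csf3r, log2 fold change 0.44 ± 0.51), 1 (Camp) had no counts, and the summed level was 1.46 to 2.53 CPM in knockouts, against 0.98 to 3.08 CPM in controls. Of 7 tested T and NK cell markers 0 passed in edgeR, DESeq2 or limma-voom, with 0 at an unadjusted p under 0.05, and their list summed to 8.42 to 11.03 CPM in knockouts, against 5.95 to 12.8 CPM in controls. The T cell genes Cd3g and Cd8b1 had log2 fold changes of 1.15 ± 0.62 and 0.91 ± 0.51. Of 5 tested dendritic cell markers 0 passed by any of these tools, with 1 at an unadjusted p under 0.05 (Clec9a, log2 fold change 1.67 ± 0.64, adjusted p = 0.191, edgeR), and Itgax had a log2 fold change of -0.48 ± 0.47. Mast cells, which carry Fcer1g with the IgE receptor, had a summed marker level of 21.4 to 32.0 CPM in knockouts, against 7.995 to 11.7 CPM in controls. Of 6 tested mast cell markers 1 rose, Cma1, a chymase, at 5.94, 4.06 and 5.94 CPM in knockouts, against 1.81, 1.92 and 1.23 CPM in controls (log2 fold change 1.68 ± 0.34 SE, adjusted p = 0.0321, edgeR). Its call was lost when any 1 library was left out (adjusted p of 0.0693 to 0.112). The median log2 fold change of the 6 was 1.28, with 4 at an unadjusted p under 0.05 and Cma1 as the 1 call in DESeq2 and limma-voom. Without control 3 and knockout 1 together, 3 of 7 passed, all higher (Kit, Cma1 and Hdc).

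The neonatal Fc receptor gene Fcgrt was at 21.0, 20.5 and 22.2 CPM in knockout 1, 2 and 3, against 14.9, 15.0 and 25.8 CPM in control 1, 2 and 3. The groups overlapped because control 3 was the highest library, and the log2 fold change was 0.20 ± 0.26 (SE). Per kilobase of exon, Fcgrt averaged 10.1 CPM in knockouts and 8.82 CPM in controls, and Pigr 27.8 CPM in knockouts and 842 CPM in controls. B2m, whose product pairs with FcRn and with MHC class I chains, was at 2819, 1380 and 1180 CPM in knockout 1, 2 and 3, against 1133, 693 and 524 CPM in control 1, 2 and 3. The groups did not overlap, but the gene did not pass in edgeR (log2 fold change 1.19 ± 0.45 SE, adjusted p = 0.183), while it passed in DESeq2 (adjusted p = 0.0328). The genes most like Fcgrt in profile were Lpar6, Acaca and Apbb2, at 0.10, 0.10 and 0.11 log2 units. Endothelial markers, of cells in which FcRn acts, had 0 of 7 past the test in edgeR, DESeq2 or limma-voom, with 1 at an unadjusted p under 0.05 (Emcn, log2 fold change 1.52 ± 0.59, adjusted p = 0.192, edgeR). The lymphatic gene Lyve1 had a log2 fold change of 0.52 ± 0.31, and without control 3 and knockout 1 together both passed, higher.

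Markers of the other tissue layers were measured beside these receptors. Of 6 basal epithelial markers 0 passed in edgeR (2 with an unadjusted p under 0.05), DESeq2 or limma-voom, with a median log2 fold change of 0.64. Trp63 and Krt5, which mark basal cells, had log2 fold changes of 0.64 ± 0.24 and 0.71 ± 0.29 (adjusted p = 0.176 and 0.213, edgeR). Of 10 fibroblast and smooth muscle markers 0 passed in edgeR (5 with an unadjusted p under 0.05), 0 in limma-voom and 3 in DESeq2 (Lum, Cnn1 and Des, all higher), with a median of 0.55. Their summed level was 2023 to 3399 CPM in knockouts, against 1459 to 2281 CPM in controls. Cnn1, a contractile protein gene of smooth muscle, had a log2 fold change of 1.34 ± 0.40 (adjusted p = 0.118, edgeR) and Lum, a matrix proteoglycan gene, of 1.06 ± 0.34 (adjusted p = 0.132). The part of tissue makeup in the receptor levels was not tested.

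Of 18 tested genes of the cytokine routes known to induce Pigr or Fcgr1, 1 passed in edgeR, beside 5.07% over all genes. Nfkb1, which encodes an NF-kappaB subunit, fell to 37.5, 40.9 and 46.1 CPM in knockout 1, 2 and 3, against 63.4, 72.5 and 72.0 CPM in control 1, 2 and 3 (log2 fold change -0.74 ± 0.16 SE, adjusted p = 0.0400, edgeR). The call was lost when any 1 library was left out (adjusted p of 0.0685 to 0.161), with upper-quartile factors and with no count filter. The list median was 0.09, and 3 of the 18 had an unadjusted p under 0.05.

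The profile of Pigr over the 6 libraries was most like those of Nucb2, Oit1 and Smco4, at 0.40, 0.41 and 0.42 log2 units, a wider distance than the nearest genes of Fcer1g and Fcgrt. Nucb2, which encodes the precursor of nesfatin-1, was at 56.0, 13.8 and 21.4 CPM in knockout 1, 2 and 3, against 529, 435 and 1134 CPM in control 1, 2 and 3. Like Pigr, it was highest among knockouts in knockout 1, but it was higher in control 3 than in the other controls. Since these genes were picked for their likeness to Pigr, their fold changes are not a separate result.

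Set beside each other, Pigr minus the mean of the 5 leukocyte receptors on the log2(CPM + 0.5) scale was 5.36, 3.54 and 3.84 in knockout 1, 2 and 3, against 10.5, 10.6 and 10.2 in control 1, 2 and 3. The difference between the group means was -6.18. As a ratio of CPM, Pigr exceeded the sum of the 5 leukocyte genes by 8.29, 2.23 and 2.86 times in knockouts, against 273, 354 and 210 times in controls. These ratios are of counts and not per length.

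**Figure D4:**
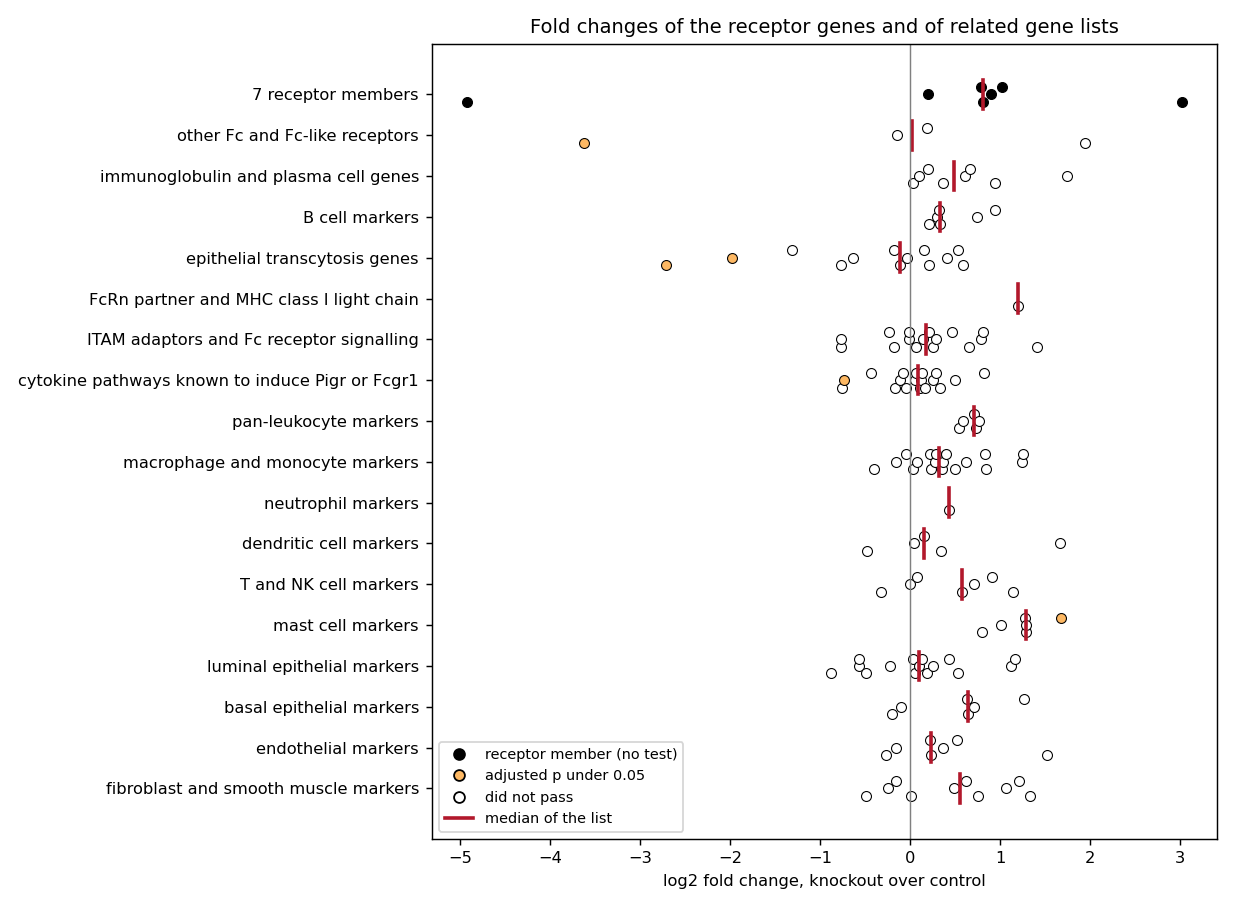
Log2 fold change, knockout over control (horizontal axis), of each tested gene in the 7 members (black, no test) and in 17 related gene lists, with the list median as a red bar and genes past an adjusted p of 0.05 filled in orange. Of the members Pigr (-4.92) and Fcgr4 (3.02) lie outside the range of the cell marker lists (-0.88 for Elf3 to 1.68 for Cma1), and 5 of the plotted listed genes passed: Fcamr, Rab17, Rab11fip1, Nfkb1 and Cma1. The prostate secretory list is not plotted. Its genes Sbp (-11.3), Spink1 (-11.2), Sbpl (-11.2) and Msmb (-8.71) had lower log2 fold changes than Pigr.

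Over the 152 tested genes of all the related lists, 9 passed (5.92%, with 1 higher and 8 lower), beside 5.07% over all genes. The median log2 fold change was 0.81 over the 7 members, which ran from -4.92 for Pigr to 3.02 for Fcgr4. It was 0.90 over the 5 leukocyte genes, against 0.03 over all tested genes. The members were chosen with results of this contrast known, so these medians are a description and no test.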

How the data were processed

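RNA was extracted with Trizol from whole frozen prostates, and polyadenylated RNA was made into directional libraries and read in single 75-base reads, per the labels' protocols. STAR, DESeq2 and mm10 are listed in the submitters' processing notes, without versions or roles. No source used here gives the counting program, annotation or strand setting, so reads of overlapping genes are uncertain. The authors deposited whole-number read counts per gene symbol for 6 libraries, with no normalization, and 0 columns were left unmapped.

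Counts were fitted with edgeR 4.0.16 (R 4.3.3): expression filter with a minimum count of 10, TMM factors, quasi-likelihood F test, Benjamini-Hochberg adjustment over 13762 genes, threshold 0.05. Each SE was the log2 fold change divided by the root of F. The fit was tested on simulated counts, drawn with the same dispersion for every gene and with no library that stood apart. Control 3 stood apart in these data, so that test does not show how reliable the calls are here. No pair of libraries agreed within sampling noise (mean chi-square per gene of 49.4 to 904). Exon lengths (the union of all annotated exons of a gene) and coordinates came from GENCODE M21. Profiles were compared among genes with a mean log2 level of at least 3 and no clone, predicted, pseudogene or receptor-segment name.

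The members and lists were chosen with earlier results of these data known. The naming rule took the members, B2m, Jchain, Tyrobp, Syk, Inpp5d, Ptprc, up to 4 called genes of each list (otherwise the 2 with the smallest p) and the 3 genes most like Pigr, Fcer1g and Fcgrt. Named outside it, after their values were seen, are Tgm4, Pbsn, Hoxb13, Fcmr, Fcgbp, Fcrls, Trim21, Fcer1a, Fcer2a, Camp and genes passing only under an alternative. Alternatives were RLE, upper-quartile and library-size scaling, no count filter, 1 CPM in 3 libraries, DESeq2 1.42.0, limma-voom (limma 3.58.1), a pseudocount of 0.1 CPM, and leaving out libraries.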

Additional observations from a re-analysis of the deposited data

How the results depend on the processing

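No paired analysis was possible because the labels give the groups no shared replicate numbers. All 7 members kept the sign of their log2 fold change in all 14 alternatives, from -5.72 to -4.59 for Pigr, 2.88 to 3.12 for Fcgr4, 0.68 to 1.47 for Fcgr1, 0.58 to 1.02 for Fcgr2b, 0.49 to 1.02 for Fcgr3, 0.65 to 1.49 for Fcer1g and 0.04 to 0.51 for Fcgrt. Library size alone moved the median of all genes to -0.10, against 0.03 with TMM factors. Values that moved by more than the SD between libraries were those of Pigr without knockout 1 (-5.72), Fcer1g without control 3 (1.49), Fcgr4 with library size alone (2.89) and in limma-voom (2.88), and, without control 3 and knockout 1 together, of Fcer1g (1.47), Fcgrt (0.51) and the leukocyte receptors minus macrophage markers (0.40), the last also with a pseudocount of 0.1 CPM (0.85). With 1 library left out, Pigr minus leukocyte receptors ran from -6.74 to -5.83, Pigr minus luminal markers from -5.80 to -4.97, and the leukocyte receptors from 0.23 to 0.52 against pan-leukocyte and from 0.51 to 0.71 against macrophage markers. Of all genes 698 passed (91.8% lower), against 1618 in DESeq2 (71.9% lower), 1229 without control 3 and knockout 1 together (70.1% lower), and 255 to 551 with 1 library left out (446 without control 1, 453 without knockout 1, 255 without knockout 2 and 282 without knockout 3). Of the list genes 9 passed, against 23 in DESeq2, 34 without control 3 and knockout 1 together, and 1 to 9 with 1 library left out (5 without control 2, 1 without knockout 2 and 4 without knockout 3). Genes far from the threshold changed sign: Fcrls (0.19) to between -0.21 and 0.75 with 1 library left out, Tyrobp (0.15) to -0.020 with library size alone and to between -0.12 and 0.64 with 1 library left out, Inpp5d (0.29) to between -0.011 and 0.56 likewise, and Syk (-0.01) to 0.026 with upper-quartile factors, 0.13 in limma-voom, 0.29 without control 3 and knockout 1 together, and -0.32 to 0.36 with 1 library left out. The causes were not tested. Depth limits Fcgr4 most, at 4 or 5 counts per control library.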
